A study of Mus musculus with 29 samples.

Results

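The comparison is of 3 arrays of cultures given doxycycline (Dox) for 12 h with 2 arrays of untreated cultures at 12 h, 5 of the 29 arrays of the series, chosen by time and treatment and described across all measured genes. The cells were primary keratinocytes from the tail of C57BL/6 mice that carry a c-FostetON transgene, and RNA was hybridised to Illumina bead arrays. The labels give Dox as 1 µg/ml in the treatment text and as 1 µg/L in the growth text, and the sources used here do not say which unit is right. The untreated cultures carry the same transgene, so what Dox does by itself and what c-Fos does cannot be told apart. The promoter that drives the transgene, the age of the mice and whether replicates came from separate animals or cultures are not stated either, so a p-value reflects only how far these samples differ among themselves. The other 24 arrays cover the same treatments at 6, 24, 48 and 72 h and enter here as an estimate of the spread and as a comparison in time.

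In a tet-on system Dox lets a transactivator switch on the transgene. c-Fos pairs with a Jun protein to form the transcription factor AP-1, which binds TGACTCA and TGAGTCA in promoters and enhancers. The form searched for below, TGANTCA, is looser, because N is any base. In the epidermis AP-1 is known for its part in proliferation, differentiation, inflammation and the expression of secreted proteases. Which transcripts differ 12 h after Dox is the question the comparison addresses.

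The 5 arrays were alike in overall signal. Their median raw signal ran from 61.2 to 64.8 with Dox and was 56.9 and 65.8 in untreated cultures, and 34.9 to 36.5% of 25697 probes were detected on an array. The cells carried keratinocyte transcripts: 6 of 7 measured markers were detected on all 5 arrays, and their summed normalized intensity was 35954 to 38172 with Dox and 36414 to 36767 in untreated cultures. Of 12 fibroblast markers 4 were measured and 1 was detected on all 5 arrays, with a sum of 124 to 144 with Dox and 138 to 159 in untreated cultures. Of 13 leukocyte markers 2 were measured, as were 2 of 7 endothelial markers, and none of these was detected on all 5 arrays. Of 8 melanocyte markers 4 were measured and 2 were detected on all 5 arrays, with a sum of 124 to 129 with Dox and 118 to 124 in untreated cultures. In bulk RNA, fewer cells of a type and less RNA per cell cannot be told apart.

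Untreated replicate 1 stands apart from the other arrays. The values deposited after normalization by the authors share 1 distribution within sets of arrays, and untreated replicate 1 belongs to the set of the 6 h arrays while the 3 Dox arrays and untreated replicate 2 belong to another. Between untreated replicate 1 and the Dox arrays 69 to 81 genes differed over 2-fold, against 27 to 28 genes between untreated replicate 2 and the Dox arrays, 31 between the untreated arrays and 4 to 13 between Dox arrays. Between untreated replicate 1 and the untreated 6 h arrays 164 and 153 genes did, more than from any 12 h array. Its set describes the distribution of the authors' values. Distances of the other 12 h arrays from the 6 h arrays were not computed. Whether it is more like the 6 h cultures than they are was therefore not tested. Probes of beta-actin (Actb) also split the arrays in 1 pair: the log2 difference of the first probe from the second was 1.75, 2.59 and 1.80 with Dox, and -1.63 and -1.10 in untreated cultures. That pair separated the treatments on both untreated arrays, and its part in the results below was not tested. The covariate given with them cannot test it, because at 12 h it runs along with treatment.

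Fos itself did not pass the test. Its probe read a log2 normalized intensity of 6.47, 6.60 and 6.66 with Dox, against 6.71 and 7.08 in untreated cultures. The Dox arrays were the 3 lowest, without overlap, and the difference was -0.32 (SE 0.17, limma adjusted p = 0.453) and -0.51 against untreated replicate 2 alone. At 6 h the same probe was at -0.39 and did not pass (limma adjusted p = 0.105). It did pass at 24, 48 and 72 h, at -0.76, -0.83 and -0.78 (limma adjusted p = 0.00535, 0.00536 and 0.00163). The sources used here do not place this probe on the transgene's transcript, so its signal is no check of whether the transgene was on. "With Dox" below therefore means on the arrays labelled Dox.

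Of 8271 genes 116 passed the threshold at 12 h (1.4%), at a limma adjusted p of 0.05 with Benjamini-Hochberg over all kept probes. Of these 79 were higher with Dox (0.955%) and 37 were lower (0.447%), and 16 differed at least 2-fold, 15 of them higher. For all 116 the Dox arrays lay on 1 side of both untreated arrays, which held for 26.8% of all genes. The median size of their difference was 0.72 on the log2 scale with both untreated arrays and 0.65 against untreated replicate 2 alone. With untreated replicate 1 left out, 8 genes passed (0.0967%), 6 of them among the 116, and with the array set as a block, which gives the 12 h difference of the named genes the same size as leaving that array out, 9 genes passed (0.109%). With the Actb probe difference as a covariate 1 gene passed (0.0121%), Slc1a3. The covariate separates the treatments at 12 h, so its slope rests on spread within groups. That spread was widest in untreated cultures at 24 h, at -0.91, 4.12 and 3.39. The median SE of a gene was 0.180 with the covariate, against 0.145 without. The fewer calls are therefore no test of the part of the probe split. Of the 116 differences 25 were smaller by over 1.5 times without untreated replicate 1 and 46 with the covariate. Of the 116 genes, 61 had untreated arrays within 0.25 of each other on the log2 scale, and 8 had them over 1 apart.

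**Figure D1:**
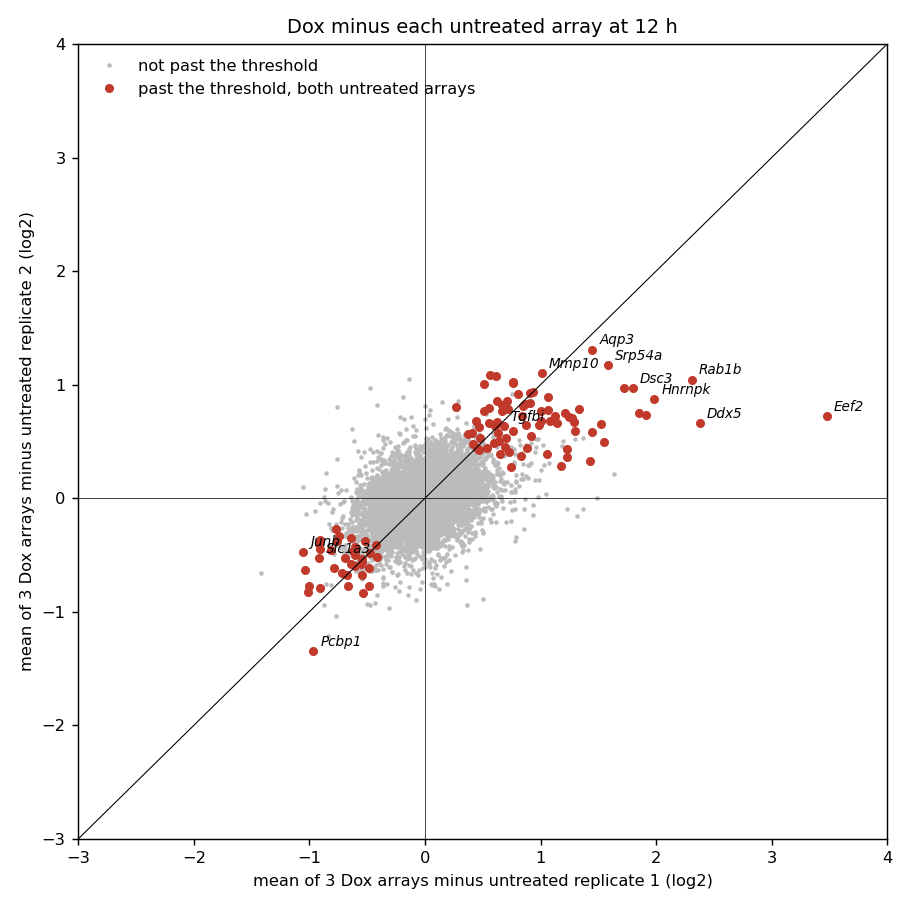
Each point is 1 of 8271 genes, with the mean of 3 Dox arrays minus untreated replicate 1 on the x axis and minus untreated replicate 2 on the y axis (log2), and the 116 genes past the threshold in red. Eef2, Ddx5, Rab1b and Hnrnpk lie far to the right of the diagonal, with a much larger difference from untreated replicate 1.

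Among secreted proteases, the stromelysin Mmp10 and the urokinase Plau rose. Mmp10, a metalloproteinase that cleaves matrix proteins, read 9.52, 9.55 and 9.79 with Dox, against 8.61 and 8.52 in untreated cultures. The untreated arrays agreed to within 0.09 and lay below every Dox array, and the difference was 1.05 (SE 0.16, 2.08-fold, limma adjusted p = 0.00199). Against untreated replicate 2 alone it was 1.10 and still passed (limma adjusted p = 0.0336), while with the Actb covariate it was 0.89 (limma adjusted p = 0.203). Mmp10 is a gene that the study itself pursued, which makes its rise no independent evidence.

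Because Mmp10 is the metalloproteinase that rose, the 300 bases around its start site are shown (RefSeq, GRCm38.p6, chr9:7502092-7502391, plus strand, 250 bases before the start and 50 after), with the match to TGANTCA in capitals.
Mmp10 promoter: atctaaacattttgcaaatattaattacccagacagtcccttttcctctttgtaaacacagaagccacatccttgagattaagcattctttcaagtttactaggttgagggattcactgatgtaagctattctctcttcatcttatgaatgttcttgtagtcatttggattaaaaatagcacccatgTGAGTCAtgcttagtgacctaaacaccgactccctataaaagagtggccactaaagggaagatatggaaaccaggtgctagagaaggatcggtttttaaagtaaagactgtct
The match begins at position -63 from the start. The motif was searched on both strands, where it gives the same positions because it equals its own reverse complement. It was in the window of 489 of 6749 genes with a promoter in the table (7.25%), in 8 of 65 genes that were higher with Dox (12.3%) and in 0 of 30 that were lower. A match describes letters and is no evidence of binding.

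Plau, which activates plasminogen, read 8.75, 8.57 and 8.57 with Dox, against 7.70 and 7.70 in untreated cultures. The untreated arrays gave nearly 1 value, and the difference was 0.93 (SE 0.22, 1.91-fold, limma adjusted p = 0.0251). With the Actb covariate it was 0.34 (limma adjusted p = 0.751). Without untreated replicate 1 it was 0.93 but did not pass (limma adjusted p = 0.268), where the SE of a gene had a median of 0.182, against 0.145 with both untreated arrays. Of 12 measured metalloproteinases and inhibitors 1 rose and 0 fell, and their median difference was 0.16, against -0.01 over all genes. The collagenase Mmp13 read 8.0, 7.83 and 8.09 with Dox, against 7.35 and 7.53 in untreated cultures, and its difference of 0.54 did not pass (limma adjusted p = 0.120). The inhibitor Timp3 was at -0.40 (limma adjusted p = 0.295), and Mmp3, Mmp9 and Timp1 were at 0.27, 0.27 and 0.25, each without overlap and none past the threshold.

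Matrix and growth factor genes that rose include Tgfbi, a secreted protein that binds integrins and collagen. It read 9.35, 9.28 and 9.22 with Dox, against 8.60 and 8.65 in untreated cultures, a difference of 0.66 (SE 0.14, limma adjusted p = 0.0118), and its other probe was at 0.57. Igfbp3, which binds insulin-like growth factors, read 8.56, 9.08 and 9.03 with Dox, against 7.64 and 8.18 in untreated cultures, a difference of 0.98 (limma adjusted p = 0.00399). The guidance molecule Sema5a was at 0.62 on 1 probe and 0.73 on the other, both past the threshold, and its untreated arrays lay within 0.03 of each other. Il7, a cytokine made by keratinocytes, read 6.87, 6.57 and 6.54 with Dox, against 5.99 and 5.84 in untreated cultures, and rose by 0.74 (limma adjusted p = 0.0283). It was the 1 of 11 measured epidermal cytokines past the threshold. With the Actb covariate Tgfbi was at 0.70, Igfbp3 at 0.80, Sema5a at 0.55 and Il7 at 0.85. The matricellular Ccn2 was at -0.58, with no overlap, and just missed it (limma adjusted p = 0.0547).

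**Figure D2:**
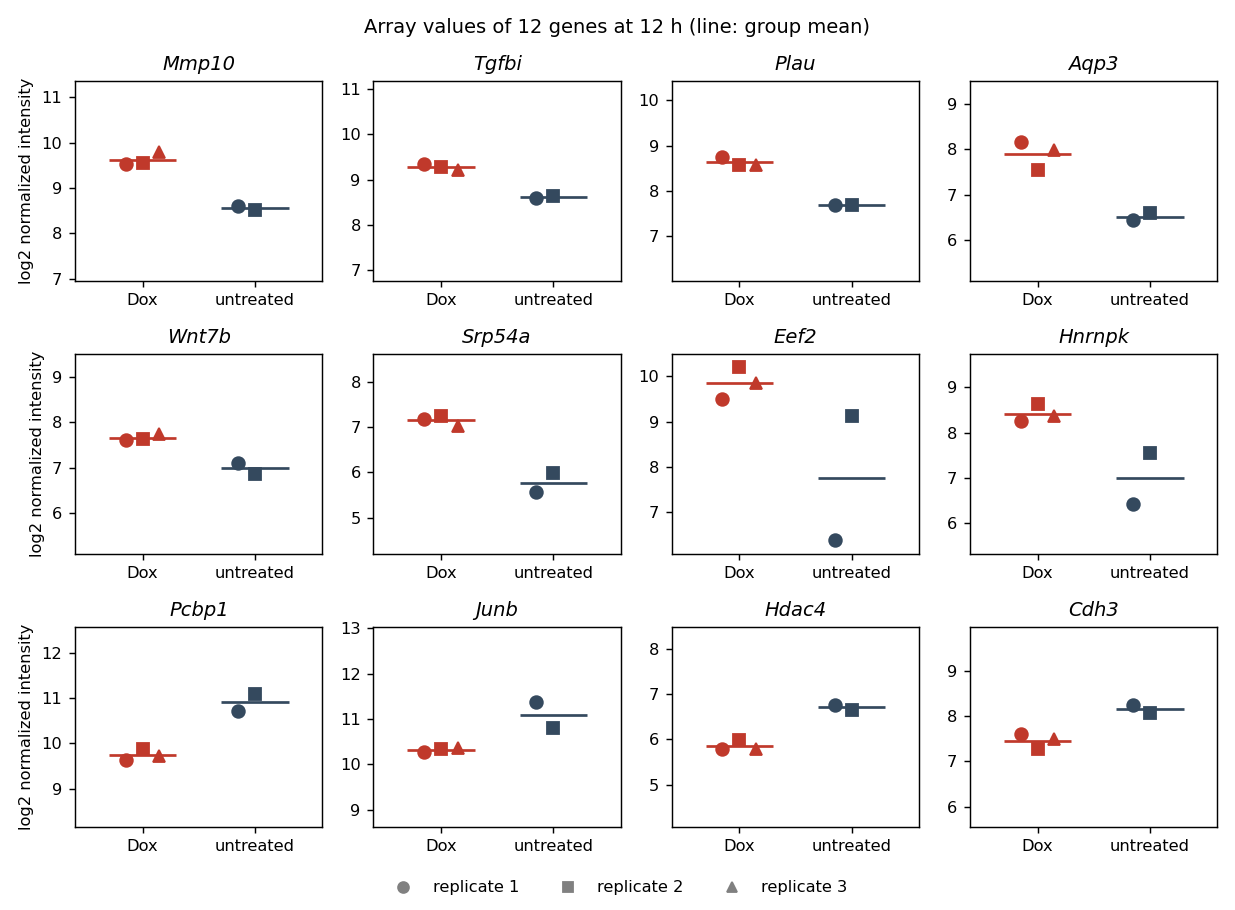
Log2 normalized intensity of 12 genes on each 12 h array, with 3 Dox arrays (red) left of 2 untreated arrays (blue), a line at each group mean and every panel of equal height in log2 units. The untreated arrays lie close together for Mmp10, Tgfbi, Plau, Aqp3, Hdac4 and Cdh3 and far apart for Eef2 and Hnrnpk.

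Of 7 measured AP-1 genes 0 rose and 1 fell, Junb, and without untreated replicate 1 none passed in limma. All 7 had a difference below 0, as 52% of all genes did, and 3 were lower at an unadjusted p under 0.05, with 0 higher. The median was -0.32, against -0.01 over all genes. Junb, a Jun-family partner of c-Fos, read 10.28, 10.34 and 10.36 with Dox, against 11.38 and 10.80 in untreated cultures. The Dox arrays lay close together and the untreated arrays 0.58 apart, and the difference was -0.76 (SE 0.15, limma adjusted p = 0.0105), or -0.47 against untreated replicate 2 alone (limma adjusted p = 0.415) and -0.46 with the Actb covariate. Jun read 6.61, 6.91 and 6.58 with Dox, against 7.17 and 7.07 in untreated cultures (-0.42, limma adjusted p = 0.122). Atf3, a stress-induced member, was at -0.32 (limma adjusted p = 0.278). Junb, Jun, Atf3 and Fos were the 4 members whose Dox arrays lay below both untreated arrays, as 14% of all genes did. Fosl1, Jund and Jdp2 overlapped, at -0.04, -0.21 and -0.05. On the authors' values the median of the 7 genes was -0.001 and 3 of 7 were above 0, where the median of all genes was 0.11. On the authors' values of the 12 h arrays in the set of untreated replicate 2 alone, the median was -0.15. There 6 of 7 were below 0, and the median of all genes was 0.002.

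Growth factors and stress induce the immediate-early genes within minutes. None of 12 measured passed the threshold in the limma fit, 6 had an unadjusted p under 0.05, all lower, and 10 were below 0. Over all genes 12.3% had an unadjusted p under 0.05, 5.85% higher and 6.43% lower, and 52% were below 0. In 6 all Dox arrays lay below both untreated arrays. Their median was -0.23, and 0.02 on the authors' values, again with a median of 0.11 over all genes. On the authors' values of the 12 h arrays in the set of untreated replicate 2 alone, their median was -0.11. There 10 of 12 were below 0, and the median of all genes was 0.002. Ier3, an inhibitor of apoptosis, was nearest to the threshold: it read 10.92, 10.96 and 11.02 with Dox, against 11.45 and 11.25 in untreated cultures, a difference of -0.38 (limma adjusted p = 0.0546). The growth regulator Myc was at -0.57 (limma adjusted p = 0.103), and Egr1 and Zfp36, which encode a zinc finger transcription factor and an mRNA-destabilising protein, at -0.36 and -0.35 (limma adjusted p = 0.242 and 0.178). For 7 MAP kinase feedback genes the median was -0.07, and 0 passed the limma threshold, with 1 lower at an unadjusted p under 0.05, where 6.43% of all genes were.

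Several of the largest rises were in genes of RNA handling, translation and membrane traffic, and there the untreated arrays differed widely from each other. Eef2, the elongation factor that moves the ribosome along mRNA, read 9.51, 10.20 and 9.86 with Dox, against 6.38 and 9.13 in untreated cultures. Every Dox array was above both untreated arrays, but the untreated arrays were 2.75 apart. The difference was 2.10 with both (SE 0.46, limma adjusted p = 0.0166), 0.72 against untreated replicate 2 alone (limma adjusted p = 0.643) and 1.15 with the Actb covariate. The other 2 probes of Eef2 were at 1.87 and 2.62, both past the threshold.

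Rab1b, a GTPase of traffic between the endoplasmic reticulum and the Golgi, read 7.40, 7.40 and 7.43 with Dox, against 5.10 and 6.37 in untreated cultures. It rose by 1.68 (SE 0.31, limma adjusted p = 0.00591), against 1.04 from untreated replicate 2 alone and 0.90 with the Actb covariate. Of 32 measured splicing and hnRNP genes 4 rose and 1 fell, while their median was -0.01, the same as over all genes. The helicase Ddx5 was at 1.52, the RNA-binding Hnrnpk at 1.43, the splicing factor Srsf5 at 1.09 and Hnrnpa2b1, a further hnRNP chosen with its value in view, at 1.01. Against untreated replicate 2 alone these were 0.66, 0.87, 0.65 and 0.59, and none passed. With the Actb covariate Ddx5 was at 0.69, Hnrnpk at 0.75 and Srsf5 at 0.74. In each of the 4 genes untreated replicate 1 was the lowest of the 5 arrays and untreated replicate 2 the next. The second probe of Srsf5 was at 0.81 and past the threshold, and that of Hnrnpk at 0.02.

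Pcbp1, a poly(C)-binding regulator of splicing and translation, was the splicing-list gene that fell and the deepest fall of all called genes. It read 9.64, 9.88 and 9.71 with Dox, against 10.71 and 11.09 in untreated cultures. No array overlapped, and the difference was -1.16 (SE 0.23, limma adjusted p = 0.0102). Against untreated replicate 2 alone it was -1.35 and missed the threshold (limma adjusted p = 0.0646), and with the Actb covariate it was -0.48 (limma adjusted p = 0.560).

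Srp54a, the GTPase subunit of the signal recognition particle, read 7.17, 7.25 and 7.03 with Dox, against 5.57 and 5.98 in untreated cultures. It had the smallest p of the rises, at 1.38 (SE 0.19, limma adjusted p = 0.000317), and stayed past the threshold against untreated replicate 2 alone (1.17, limma adjusted p = 0.0336). Mouse Srp54 genes are near-identical copies, so which of them the probe reads is uncertain. Srpr, the receptor subunit that docks the particle at the endoplasmic reticulum, read 6.52, 6.41 and 6.36 with Dox, against 6.92 and 7.20 in untreated cultures, and fell by 0.63 on the log2 scale (limma adjusted p = 0.0146). Tom1, an endosomal sorting adaptor, Slc16a6, of the monocarboxylate transporter family, and Cpsf6, of the mRNA cleavage complex, were at 1.30, 1.32 and 1.06. Each was detected on all Dox arrays and on 1 of 2 untreated arrays, which leaves the size of the rise uncertain, as for Ddx5. Against untreated replicate 2 alone they were 0.75, 0.73 and 0.79 (limma adjusted p = 0.445, 0.593 and 0.363), and with the Actb covariate 0.62, 0.50 and 0.65. The other probes of Slc16a6 were at 0.03 and -0.26 and that of Cpsf6 at -0.17.

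Called genes of the cell surface included Aqp3, Dsc3, Cdh3, Clec2d and Clec2g. Aqp3, the glycerol and water channel of basal epidermis, read 8.17, 7.54 and 7.98 with Dox, against 6.45 and 6.59 in untreated cultures. The untreated arrays lay closer together than the Dox arrays, and it rose by 1.38 (SE 0.27, 2.60-fold, limma adjusted p = 0.00932). From untreated replicate 2 alone the difference was 1.31, and with the Actb covariate it was 1.29. Dsc3, a desmosomal cadherin of the lower epidermis, read 7.19, 7.40 and 7.25 with Dox, against 5.49 and 6.31 in untreated cultures, and rose by 1.38 (limma adjusted p = 0.00932), against 0.97 from untreated replicate 2 alone and 0.55 with the Actb covariate. Its partner Dsg3 read 7.36, 7.32 and 7.46 with Dox, against 7.91 and 8.0 in untreated cultures, and did not pass (-0.57, limma adjusted p = 0.0610). The 1 gene of 11 measured desmosome genes past the threshold was Dsc3.

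Cdh3, the P-cadherin of basal cells, fell. It read 7.60, 7.28 and 7.49 with Dox, against 8.24 and 8.07 in untreated cultures (-0.70, SE 0.12, limma adjusted p = 0.00424). All 3 of its other probes were below 0, from -1.34 to -0.34, and 1 of them passed. It was the 1 of 11 measured basal keratinocyte genes to pass, and the median of that list was 0.03. Clec2d and Clec2g, C-type lectin ligands of natural killer cell receptors, rose by 1.35 and 0.87 (limma adjusted p = 0.0118 and 0.00399). Clec2d spread widely among the Dox arrays, from 6.45 to 7.76, above 5.32 and 6.07 in untreated cultures.

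Falls also included receptors, a transporter and regulators of transcription. Tnfrsf10b, the death receptor for TRAIL, read 7.59, 7.74 and 7.32 with Dox, against 8.56 and 8.37 in untreated cultures (-0.92, SE 0.22, limma adjusted p = 0.0308). With the Actb covariate it was -0.45, and its 3 other probes ranged from -0.27 to 0.11. The glutamate transporter Slc1a3 read 6.14, 6.01 and 6.04 with Dox, against 6.98 and 6.59 in untreated cultures (-0.72, limma adjusted p = 0.00199). It was the gene that still passed with the Actb covariate (-0.80, limma adjusted p = 0.0306), but not without untreated replicate 1 (-0.53, limma adjusted p = 0.131). The class IIa deacetylase Hdac4 read 5.80, 5.98 and 5.79 with Dox, against 6.77 and 6.65 in untreated cultures (-0.85, limma adjusted p = 0.0164). Hdac4 was the 1 of 19 measured chromatin modifiers to fall, and 0 rose.

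The kinase Ptk2b, the phosphatase-like Pald1, histone H3c13 and the proline-rich Prrc2a fell, with differences from -0.89 to -0.69 and untreated arrays at most 0.30 apart. With the Actb covariate Prrc2a was at -0.53 and Ptk2b at -0.44. Ptk2b and Pald1 were each detected on 2 of 3 Dox arrays, which leaves the size of their falls uncertain. Mcam, an adhesion molecule, was at -0.83 (limma adjusted p = 0.00424) and was detected on 1 of 3 Dox arrays, which leaves its size uncertain, and neither of its other probes passed. Cdc25b, a phosphatase that promotes entry into mitosis, was not detected on any Dox array, and read 5.52 and 5.05 in untreated cultures. It was at least 1.39-fold lower with Dox (limma adjusted p = 0.0481), where the bound sets the untreated mean against the lowest level detected on each Dox array. With untreated replicate 2 alone that bound is 1.18-fold, and the fitted difference did not pass (limma adjusted p = 0.591). The Dox arrays overlapped the untreated arrays in none of these genes.

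A gene that does not pass without untreated replicate 1 need not owe its call to that array, because the median SE is larger there. Plau, Atf5 and Tgfbi were at 0.93, 0.92 and 0.63 without it, against 0.93, 0.91 and 0.66 with both untreated arrays. Of the 116 differences 25 were smaller by over 1.5 times without it. The genes that did pass have a call free of the array that stands apart, but they rest on 1 untreated array. That array is assumed to vary as the other groups do. The genes that passed were Mmp10, Srp54a, Dusp10, Ccdc181, Pbp2 and Wnt7b, all higher with Dox, and Ifi30 and Churc1, both lower. The fit with the array set as a block, which is no second check because it leaves the 12 h comparison on the same arrays, called these 8 and Ifi202b. Wnt7b, a Wnt ligand, read 7.60, 7.64 and 7.75 with Dox, against 7.11 and 6.87 in untreated cultures. No array overlapped, and the difference was 0.67 (SE 0.12, limma adjusted p = 0.00494) and 0.79 without untreated replicate 1 (limma adjusted p = 0.0336), while its other probe was at 0.03.

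Dusp10, a phosphatase that switches off the p38 and JNK kinases, read 8.25, 8.15 and 8.13 with Dox, against 7.91 and 7.38 in untreated cultures (0.53, limma adjusted p = 0.0263), and its other probe was at 0.35. Ccdc181, a coiled-coil protein, and Pbp2, of the phosphatidylethanolamine-binding family, were at 0.74 and 0.56, and at 0.85 and 0.68 without untreated replicate 1. For both, the Dox arrays lay above both untreated arrays. The lysosomal reductase Ifi30 read 6.98, 7.03 and 6.80 with Dox, against 6.88 and 7.70 in untreated cultures, so that untreated replicate 1 lay among the Dox arrays. With both untreated arrays its difference was -0.35 (limma adjusted p = 0.328). Churc1, a zinc-binding protein, was at -0.53 (limma adjusted p = 0.0671) with both and at -0.82 with replicate 2 alone.

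**Figure D3:**
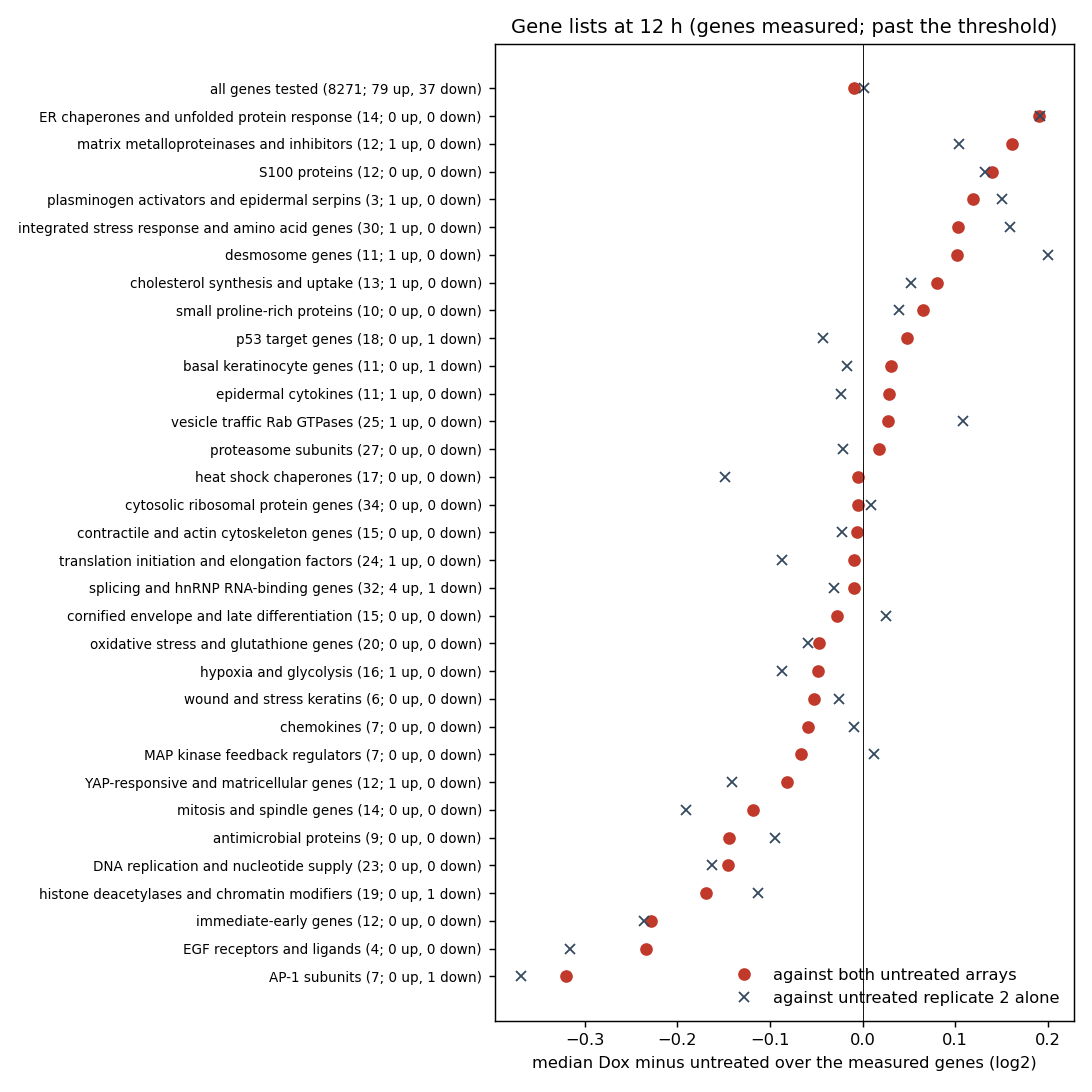
Median Dox minus untreated (log2) over the measured genes of each list, with red points against both untreated arrays and crosses against untreated replicate 2 alone, and counts past the threshold in the labels. The AP-1, EGF receptor and immediate-early lists have the lowest medians and the endoplasmic reticulum chaperones the highest, and no list has more than 4 genes past the threshold in 1 direction.

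Most other gene groups held few called genes. All 14 measured endoplasmic reticulum chaperone and unfolded protein response genes had a difference above 0, with a median of 0.19, where 48% of all genes were above 0. None passed in the limma fit, and 4 were higher at an unadjusted p under 0.05, as 5.85% of all genes were. The oxidoreductase Pdia3 read 9.83, 8.74 and 9.07 with Dox, against 7.93 and 8.61 in untreated cultures (0.95, limma adjusted p = 0.109), and the mannosidase-like Edem1 was at 0.56 (limma adjusted p = 0.0942). Against untreated replicate 2 alone 13 of 14 were above 0 and the median was 0.19. Of 30 measured integrated stress response and amino acid genes 1 rose, the transcription factor Atf5, which read 8.35, 8.02 and 8.38 with Dox, against 7.34 and 7.33 in untreated cultures. Both untreated arrays gave nearly the same value, and the difference was 0.91 (SE 0.17, limma adjusted p = 0.00725). Phgdh, of serine synthesis, was at 0.95 but 0.53 from untreated replicate 2 alone (limma adjusted p = 0.0668 with both).

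Single genes passed in 2 metabolic lists. Nsdhl, of cholesterol synthesis, rose by 0.57 (limma adjusted p = 0.0169) as 1 of 13 measured, and its 3 other probes were between 0.04 and 0.40. Pgk1, of glycolysis, read 5.18, 5.40 and 5.68 with Dox and was not detected on either untreated array, so it was at least 1.53-fold higher (limma adjusted p = 0.0118), and its fitted difference was 0.93, or 0.57 with the Actb covariate. No gene passed among the 12 S100, 10 small proline-rich, 15 cornified envelope, 6 wound keratin, 7 chemokine, 9 antimicrobial, 14 mitosis, 23 DNA replication, 34 ribosomal protein, 27 proteasome and 17 heat shock genes measured. At an unadjusted p under 0.05 in the limma fit 9 of these 174 genes were higher and 14 lower, where 5.85% and 6.43% of all genes were.

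Among these, S100a7a, an antimicrobial calcium-binding protein, read 9.70, 9.61 and 9.73 with Dox, against 9.30 and 9.23 in untreated cultures. All Dox arrays were higher, and the difference of 0.41 did not pass (limma adjusted p = 0.102). The neutrophil attractant Cxcl1 read 9.51, 9.20 and 9.38 with Dox, against 9.75 and 9.73 in untreated cultures (-0.38, limma adjusted p = 0.0896). The EGF receptor ligands Hbegf and Epgn were at -0.34 and -0.32 (limma adjusted p = 0.179 and 0.244), each with all Dox arrays below both untreated arrays. The medians of the mitosis and DNA replication lists were -0.12 and -0.14 with both untreated arrays and -0.19 and -0.16 with replicate 2 alone. On the authors' values both were above 0, at 0.09 and 0.10, where the median over all genes was 0.11. On the authors' values of the 12 h arrays in the set of untreated replicate 2 alone, they were -0.12 and -0.09. There 13 of 14 and 20 of 23 genes were below 0, and the median over all genes was 0.002.

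In time, the 12 h calls were shared with the neighbouring times to different degrees. All times share the variance estimate of a gene in the single fit, so calls at different times are not independent of each other. Of the 116 genes 44 also passed at 24 h, 37.9% of the 12 h and 18.3% of the 24 h calls, all in the same direction, where 2.91% of all genes passed. At 48 h 26 passed, all in the same direction (22.4% of the 12 h and 12.3% of the 48 h calls), where 2.56% of all genes passed. At 72 h 31 passed, 25 of them in the same direction (26.7% of the 12 h and 6.00% of the 72 h calls), where 6.25% of all genes passed. At 6 h 69 passed, 65 in the same direction (59.5% of the 12 h and 3.43% of the 6 h calls), where 24.3% of all genes passed. The untreated 6 h arrays lie in the set of untreated replicate 1 at 12 h. Over 8271 genes, which are not independent replicates, the 12 h differences correlated with those at 6, 24, 48 and 72 h at Pearson's r = 0.354, 0.373, 0.177 and 0.131. With untreated replicate 2 alone these were 0.214, 0.332, 0.159 and 0.109.

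A group of 21 genes, chosen after their values were seen, passed at 12, 24, 48 and 72 h in 1 direction, 16 higher and 5 lower. Mmp10, Tgfbi, Sema5a, Igfbp3 and Wnt7b are among the higher, with Cr1l, a regulator of complement, at 0.98 at 12 h and between 1.07 and 1.21 later. At 6 h Cr1l and Igfbp3 were at 1.91 and 2.35, above their 12 h values. Mmp10, Tgfbi, Sema5a and Wnt7b were at 0.35, 0.08, -0.50 and 0.67 at 6 h. From untreated replicate 2 alone at 12 h Cr1l and Igfbp3 were at 0.75 and 0.71. Map2k3, the kinase that activates p38, was at 0.47 at 12 h and between 0.54 and 0.56 later, and Pcgf5, of the Polycomb group, at 0.49 and between 0.33 and 0.66. The lower are the scaffold Akap12, the adhesion protein Flrt2, the kinase Dapk2, the repressor Snai3 and the lysophosphatidic acid receptor Lpar6, at -0.57 to -0.42 at 12 h. Against untreated replicate 2 alone at 12 h these 5 ranged from -0.58 to -0.33, with Akap12 at -0.33 and the widest move. With the Actb covariate Akap12 was at -0.28, Snai3 at -0.33, Cr1l at 0.69 and Map2k3 at 0.62.

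Psg18, of the pregnancy-specific glycoprotein family, and Mab21l4 belong to the 16 and, like Mmp10, hold TGANTCA near the start site, so their matches are shown with 12 bases on each side (RefSeq, GRCm38.p6, minus strand for both, chr7:18355096-18355126 and chr1:93161110-93161140).
Psg18: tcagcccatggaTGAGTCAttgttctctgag
Mab21l4: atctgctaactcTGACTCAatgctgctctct
The matches begin at positions -107 and -180 from the start. Mmp10, Psg18 and Mab21l4 were the only ones of the 16 with a match found. Genes without a promoter in the table could not show one. Psg18 and Mab21l4 were picked for their match, which does not mark the group. Psg18 read 7.16, 7.28 and 7.57 with Dox, against 6.35 and 6.69 in untreated cultures (0.82, limma adjusted p = 0.00591), and its other probe was at 1.02. It was at 1.96 at 6 h, and at 0.64 from untreated replicate 2 alone at 12 h. Psg genes are a family of close copies, so the probes may read more than 1 of them. Mab21l4 read 5.99, 6.06 and 5.94 with Dox, against 5.29 and 5.14 in untreated cultures (0.79, limma adjusted p = 0.0131).

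**Figure D4:**
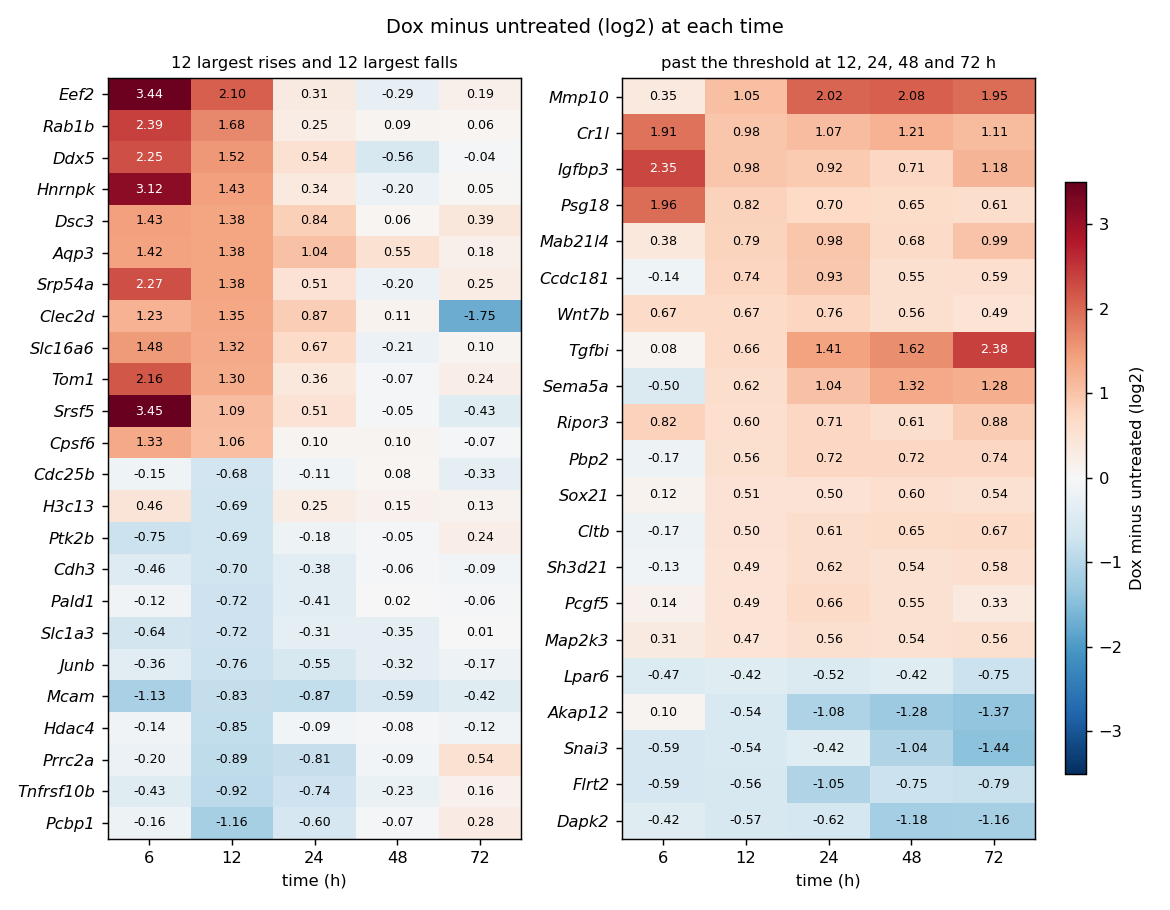
Dox minus untreated (log2) at 6, 12, 24, 48 and 72 h for the 12 largest rises and 12 largest falls at 12 h (left) and the 21 genes past the threshold at 12, 24, 48 and 72 h in 1 direction (right). Most of the largest 12 h rises are larger at 6 h and near 0 from 48 h on, while Mmp10, Tgfbi and Sema5a grow after 12 h.

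The difference between times was itself tested. For 66 genes the 12 h effect differed from the mean effect at 24, 48 and 72 h (0.798%), and 16 of these, chosen after their values were seen, were called at 12 h. Without untreated replicate 1 the difference passed in 23 genes, among them 3 of the 16, Tgfbi, Mall and Akap12, and with the array set as a block in 17, with the same 3. In 4 of the 16 the effect was larger later in the same direction: Tgfbi, Mmp10, Akap12 and Sema5a. Tgfbi was at 0.66 at 12 h and at 1.41, 1.62 and 2.38 at 24, 48 and 72 h (12 h minus later -1.15, limma adjusted p = 0.000139). Akap12 was at -0.54 at 12 h and at -1.08, -1.28 and -1.37 later (0.71, limma adjusted p = 0.0215).

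In the remaining 12 the effect was smaller later or opposite: Srp54a, Rab1b, Hnrnpk, Srsf5, Clec2d, Clec2g, Mall, Pltp, H3c13, Cherp, Srpr and Nog. At 12 h Pltp was detected on no Dox array and 1 untreated array, and Nog on 1 Dox array. That leaves the size of their 12 h effect and of its change in time uncertain. Rab1b was at 1.68 at 12 h and at 0.25, 0.09 and 0.06 later (12 h minus later 1.54, or 0.91 without untreated replicate 1, limma adjusted p = 0.0332 and 0.476). Without that array Hnrnpk was at 0.81 instead of 1.36 and Srsf5 at 0.65 instead of 1.08, and neither passed. Clec2d was at 1.35 at 12 h and at 0.87, 0.11 and -1.75 later (12 h minus later 1.60, limma adjusted p = 0.0117). Mall, a membrane raft protein, was at 0.89 at 12 h and at 0.32, -0.30 and -0.67 later. Nog, a secreted inhibitor of bone morphogenetic proteins, was at -0.64 at 12 h and was at -0.15, 0.02 and 0.12 later.

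The 12 h effect differed from that at 6 h in 681 genes (8.23%), of which 33 were called at 12 h and 16 of those had a larger 6 h effect in the same direction. Srsf5 was at 1.09 at 12 h and 3.45 at 6 h, and Hnrnpk at 1.43 and 3.12. Sema5a was at 0.62 at 12 h and -0.50 at 6 h. At 6 h the Actb probe difference was 3.44 to 4.03 with Dox, and -4.59 and -3.96 in untreated cultures, a wider split than at 12 h. Its part in the difference between these times was not tested.

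A second probe was kept for 40 of the 116 genes. In 34 (85.0%) it had the same sign, and in 7 it passed the threshold in the same direction. Over all 2066 genes with a second kept probe 57.6% had the same sign, and 1.60% had a second probe past the threshold in the same direction.

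**Figure D5:**
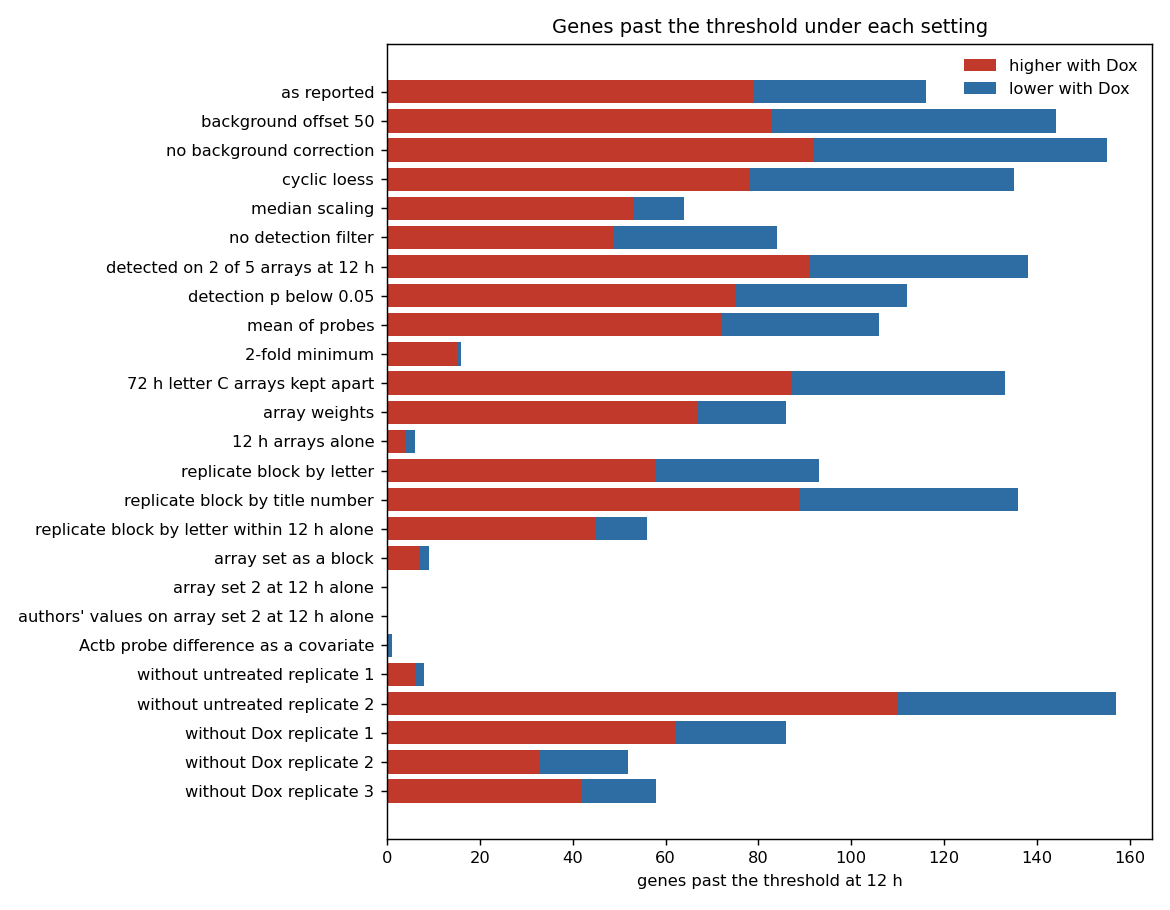
Number of genes past the threshold at 12 h under each way of processing, higher with Dox in red and lower in blue, with the fit on the authors' values left out because its 834 genes would set the scale. The count is 116 as reported, between 52 and 157 in most settings, 16 with a 2-fold minimum and 9 or fewer where untreated replicate 1 is left out or set apart, with the Actb covariate or with the 12 h arrays alone.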

How the data were processed

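Per the file headers the authors deposited Illumina signals as intensity values without normalization, each with a detection p-value, and a second table of log2 values that the authors deposited after a normalization. The sources used here give neither its method nor the processing of the scans. The signals were background-corrected through their detection p-values (offset 16) and quantile normalized, by the function neqc of limma (version 3.58.1, R 4.3.3). A probe was kept if its detection p was under 0.01 on at least 2 of 29 arrays, as held for 11794 of 25697, and a gene was counted by its brightest kept probe, which gave 8271 genes. Of the kept probes 11090 carry 1 gene symbol, taken from the platform annotation and updated through RefSeq (GRCm38.p6).

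A single limma fit held 10 group means over 27 replicates, with the 72 h arrays of letter C averaged within treatment. It had 17 residual and 8.32 prior degrees of freedom, and the prior SD was 0.158. The contrasts tested were Dox minus untreated at 12 h, and its difference from the effect at 6 h and from the mean effect at 24, 48 and 72 h. Benjamini-Hochberg adjustment ran over all kept probes, with a threshold of 0.05, and lists were described by counts and medians. The number of arrays, 3 against 2, limits the precision.

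Genes named are Fos, Mmp10 and S100a7a, the 12 largest rises and falls past the threshold without overlap, every gene past it without untreated replicate 1 or with the array set as a block, up to 3 members of a list by smallest p, and the 5 smallest p of each difference between times. Genes called at 12, 24, 48 and 72 h, called genes whose effect changed with time, and further members of the AP-1, immediate-early, protease and splicing lists were added after their values were seen. Genes, lists and tests were chosen with earlier results of these data known. Deviations from the group mean correlated across treatments at -0.066 for letter A and -0.067 for letter C. Both values use the same difference between 2 untreated arrays, which lie in different sets, so they cannot show whether letters pair samples. The main fit used no pairing by letter. Alternatives covered background, normalization, the authors' values, filters, probes, array weights, blocks, covariates and leaving out each replicate, and the procedure was tested on simulated arrays.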

Additional observations from a re-analysis of the deposited data

Results flagged for a closer look

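The effect of Dox at 12 h was tested against the effect at other times in the limma fit, and the results past the threshold are given with the genes of smallest p. Against the mean effect at 24, 48 and 72 h 66 genes differed, 38 with a 12 h effect above the later one and 28 below. Fhl1, a LIM-domain protein, read 7.79, 7.93 and 7.88 with Dox at 12 h, against 8.01 and 7.80 in untreated cultures, a difference of -0.04. Its later differences were -1.12, -1.78 and -2.03, and the 12 h effect minus the later mean was 1.60. For Ankk1, a kinase, that value was 1.13. For Igfbp2, which binds insulin-like growth factors, the fitted value was 1.25, but it was undetected on all 5 arrays at 12 h, so its 12 h effect was not measured and the value is no size. Mgst3, a microsomal glutathione transferase, was at -0.04 at 12 h and at 0.72, 1.23 and 1.53 later, which gave -1.20. Tgfbi gave -1.15. Of these 5 genes Tgfbi alone was past the threshold at 12 h.

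Against the 6 h effect 681 genes differed, 278 above and 403 below. The genes of smallest p were Syngr2, a synaptogyrin of vesicles, with the 12 h effect minus the 6 h effect at -1.92, the splicing factor Srsf5 at -2.36, the initiation factor subunit Eif3c at -2.14, the Rab regulator Tbc1d20 at -1.94 and Msn, which links actin to the membrane, at -2.32. All but Srsf5 had a 12 h difference between -0.06 and -0.02, and 6 h differences of 1.88 to 2.27. The untreated 6 h arrays stand furthest from the others in the Actb probe pair, and its part in these values was not tested.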

How the results depend on the processing

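The 116 genes at 12 h became 64 with median scaling (53 higher, 11 lower), 135 with cyclic loess (78 higher, 57 lower), 16 with a 2-fold minimum, 6 with the 12 h arrays alone, 9 with the array set as a block, 1 with the Actb covariate and 834 on the authors' values (833 higher, 1 lower), which shift the median of all genes by 0.11. The 4 arrays of 1 set alone gave 0 in limma (637 at an unadjusted p under 0.05), and 0 on the authors' values (842 at an unadjusted p under 0.05), a setting chosen after seeing the data. Leaving out 1 replicate gave 8 to 157: 8 without untreated replicate 1, 157 without untreated replicate 2, 52 and 58 without Dox replicates 2 and 3. A replicate block by letter gave 93 genes, 83 of them shared with the 116, one by title number 136, and a replicate block by letter within 12 h alone 56, none of them a pairing the labels state. The difference from later times was called in 66 genes as reported, 17 with the set as a block, 1211 on the authors' values and 23 to 90 without 1 replicate (23 without untreated replicate 1, 39 and 41 without Dox replicates 2 and 3), and that from 6 h in 681, and 428 to 594 without 1 replicate. No named gene called at 12 h changed sign in any of 25 settings. Of named genes not called, Ifi30 was at -0.76 without untreated replicate 1 and 0.061 without untreated replicate 2, Cnfn, Birc5 and Fen1 at 0.063, 0.045 and 0.071 on the authors' values, Eif4g2 at -0.0059 on the authors' values of 1 set and Actb at -0.78 as a mean of probes. Of the differences in time, those of Srsf5, Tbc1d20 and Tgfbi were at -0.92, -0.56 and -0.41 on the authors' values and did not pass (limma adjusted p = 0.0885, 0.106 and 0.0747). Apart from fewer arrays or a fold minimum, the cause of these shifts was not tested. Transcripts near the background are poorly measured.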
